A study of Camelus dromedarius with 4 samples.

Results

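The 10 genes described here encode the insulin-like growth factor (IGF) ligands IGF1 and IGF2, the receptors IGF1R and INSR, and the IGF binding proteins IGFBP2, IGFBP3, IGFBP4, IGFBP5, IGFBP6 and IGFBP7. They were taken by name from a deposited table of season means, in which 16047 gene symbols carry values, and all 10 were found. The libraries were made from the supraoptic nucleus, a hypothalamic nucleus of vasopressin and oxytocin neurones, of adult male dromedary camels of the Tergui breed that were hydrated when slaughtered and matched for age. Winter animals were killed in January at El Oued and summer animals in June at Ouargla, both in Algeria, so season and place cannot be told apart. RNA from 2 winter and 2 summer samples was sequenced after removal of ribosomal RNA. The labels number the samples without naming animals, while the study's text counts them as camels, so p-values measure the spread between samples that are taken to be different animals. No treatment or genotype other than season separates the groups.

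IGF1 and IGF2 are small secreted hormones related to insulin. Both act mainly through IGF1R, a receptor tyrosine kinase, while INSR is the insulin receptor and can pair with IGF1R in hybrid receptors. The binding proteins hold the ligands outside cells, carry them, and release them when proteases cut the binding protein. In the adult brain IGF1 is made by some neurones, microglia and vessel cells, and IGF2 mainly by the choroid plexus, the meninges and vessels. IGFBP7 binds IGFs weakly and is a protein of the vascular basement membrane.

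Each season mean is the average of 2 libraries after division by the DESeq size factor, a number that puts libraries of different depth on 1 scale. Because each read is worth a fixed step in each library, a mean can be solved for the whole reads behind it. The recovered size factors were 1.33 and 0.946 for the winter libraries, called winter A and winter B here, and 0.922 and 0.877 for the summer libraries, called summer A and summer B. In the count files, whose gene models carry no names, between 4379162 and 6902037 reads fell on gene models. A count of 0 allows up to 3 reads, or 2.26 to 3.42 normalized reads depending on the library, which covers counting error only. Of the members, 7 had a single solution, and IGF1R, INSR and IGFBP7, the 3 with the highest means, had several. Of the 7, IGF1, IGFBP2, IGFBP3, IGFBP4 and IGFBP5 reached the minimum level, a mean of 10 or more normalized counts in either season, and were tested. The remaining 2, IGF2 and IGFBP6, lay under it. Levels of different genes were not compared, since no transcript lengths were used here.

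The libraries differed from each other beyond season. Of the 7643 single-solution genes at or over the minimum level, 20.3% differed more than 3-fold between the summer libraries, and 18.3% were more than 3-fold higher in summer B. Between the winter libraries 5.47% differed as much. Winter B was low in 3 of 4 markers of the magnocellular neurones, with 8 reads of PDYN against 84 in winter A, 13 of SIM1 against 84 and 20 of OTP against 105. The fourth single-solution marker of that list, POU3F2, did not follow, with normalized reads of 44.5 in winter A and 44.4 in winter B. Vasopressin, the marker hormone of the nucleus, is listed as a putative AVP and averaged 11822 normalized counts over summer libraries against 2560 over winter libraries, and oxytocin (OXT) averaged 592 and 621. PDYN passed the rule of the study (an unadjusted p under 0.05 and more than 2-fold), with a fitted log2 difference of -1.76, winter over summer (edgeR quasi-likelihood test, unadjusted p = 0.0338, adjusted p = 0.982), and did not pass it without winter B or with edgeR's legacy fit. In bulk tissue, fewer cells of a type and less RNA per cell cannot be told apart.

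Of the 8 members at or over the minimum level, 0 had season means more than 2-fold apart. All 8 reached it in both seasons. Among all 13806 symbols that reached it, 7.26% were more than 2-fold apart, 2.72% higher in winter and 4.53% higher in summer. The 8 members had a median log2 ratio, winter over summer, of -0.036, and all 13806 symbols a median of -0.037. The members with the widest difference were IGFBP7 and IGF1, both with a lower mean in winter, at log2 ratios of -0.86 and -0.71. The other 6 members lay between -0.064 and 0.093.

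**Figure D1:**
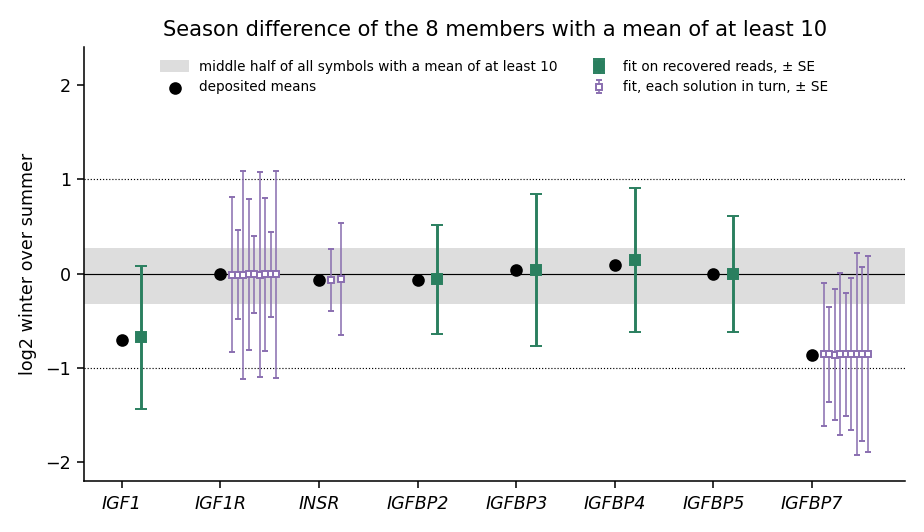
Season difference of 8 members, as log2 of winter over summer. Black points are ratios of the deposited means, green squares the fitted differences on recovered reads with their SE, open purple squares the fit with each solution of a gene put in place in turn, the grey band the interquartile range of all symbols and dotted lines a 2-fold difference. IGF1 and IGFBP7 sit lowest, at -0.71 and -0.86, and the others near 0.

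By the quasi-likelihood test of edgeR, run on recovered reads, 0 of the 5 members tested passed that rule. Of all 7643 genes tested, 1.67% passed it, 0.850% higher in winter and 0.824% higher in summer, 1.99% had an unadjusted p under 0.05 and 0.00% an adjusted p under 0.05. With no gene past the adjusted threshold, a gene past the rule, PDYN included, is not shown to differ between seasons. The number of members past the rule was also 0 with edgeR's exact test and with DESeq2, and 0 of the 5 had an unadjusted p under 0.05 with any of the 3 tests. With 2 samples against 2, an exact permutation test (two-sided) cannot go below p = 0.333. Libraries of the seasons did not overlap in 30.5% of the genes tested and in 0 of the 5 members.

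Among the ligands, IGF1 varied more within summer than between the seasons. The reads of IGF1 were 61 in winter A and 26 in winter B, and 16 in summer A and 90 in summer B. After division by the size factors these were 46.0 and 27.5 in winter, and 17.4 and 103 in summer. Summer A was thus the lowest of the 4 libraries and summer B the highest, and the winter libraries lay between them. The summer mean was 59.97 normalized counts and the winter mean 36.8, a ratio of 1.63 in favour of summer. The fitted log2 difference was -0.67 with an SE of 0.76 (edgeR quasi-likelihood test, unadjusted p = 0.401, adjusted p = 0.982). Without summer B it turned to 1.09, and without summer A it was -1.47. Each of these fits holds 1 summer library, which is assumed to vary like the winter ones. A single summer library therefore sets the direction of the IGF1 difference.

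IGF2 was at the limit of detection. It had 0 reads in winter A, 3 in winter B, 0 in summer A and 1 in summer B. Each of these counts is at or under 3 reads, so no fold is given. How much of the IGF2 transcript the authors' gene model covers is not known here. Few reads therefore need not mean little transcript in the tissue. Markers of the choroid plexus, an abundant source of IGF2 in the brain, were of mixed level. Of 8 markers TTR and KCNJ13 had no value in the table and 4 reached the minimum level. FOLR1 had means of 125 in summer and 83.9 in winter and CLIC6 of 9.12 and 4.23, and the 6 markers with values summed to 192 normalized counts in summer and 142 in winter. Fibroblast markers of the meninges and vessels summed to 603 and 497 over 10 of 12 genes, with FMOD and OGN without a value and DCN at 72.4 and 64.5. Of these COL1A2, a collagen chain, passed the rule, at means of 102 in summer and 50.7 in winter (edgeR quasi-likelihood test, unadjusted p = 0.0321, adjusted p = 0.982), and did not with DESeq2, with RLE or total scaling, or without winter A, winter B or summer A.

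**Figure D2:**
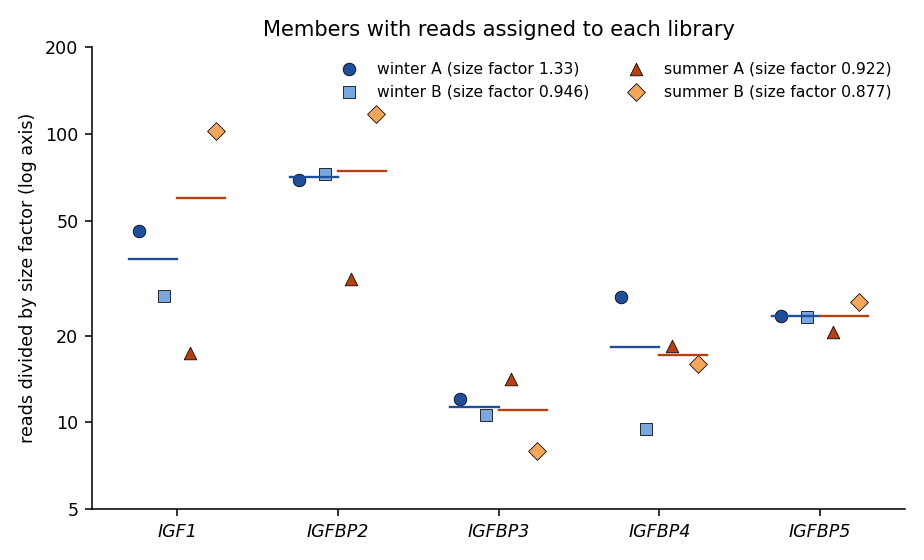
Recovered reads divided by size factor, on a log axis, in each of the 4 libraries for the 5 members with a single solution at or over the minimum level. Short lines are the season means. Summer B (orange diamonds) is highest and summer A (dark orange triangles) lowest for IGF1 and IGFBP2, while the 4 libraries of IGFBP5 sit between 20.6 and 26.2.

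The receptors had nearly the same mean in both seasons. IGF1R, the main receptor of both ligands, averaged 671 normalized counts in summer against 667.5 for winter, which gives a log2 ratio of -0.0074. Its reads have 3 solutions in each season and so 9 combinations. The most even solution places 674 and 536 reads in summer A and summer B and 861 and 648 in winter A and winter B, which gives normalized reads of 731, 611, 650 and 685. In 0 of the 9 combinations did the seasons stand apart. The fitted difference lay between -0.010 and -0.0050 in all 9, with unadjusted p-values from 0.985 to 0.995 (edgeR quasi-likelihood test). The SE was 0.41 in the most even combination and higher in the other 8.

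INSR averaged 239 normalized counts over the summer libraries and 229 over the winter libraries. Its summer mean has 1 solution, 245 reads in summer A and 187 in summer B, or 266 and 213 after scaling. For winter there are 2 solutions, with 303 reads in winter A and 217 in winter B, or with 488 and 85. The first gives normalized reads of 229 in both winter libraries, inside the summer range, and the second 368 and 89.9, outside it on both sides. The log2 difference was -0.064 with an SE of 0.33 for the first and -0.052 with an SE of 0.59 for the second (edgeR quasi-likelihood test, unadjusted p = 0.849 and 0.933). A p that misses the threshold does not show that the receptors were alike in both seasons.

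Of the binding proteins, IGFBP2 repeated the split of the summer libraries that IGF1 showed. IGFBP2, an abundant binding protein of the cerebrospinal fluid, had 92 and 69 reads in winter A and winter B, and 29 and 103 in summer A and summer B. Normalized, the winter libraries were close together at 69.4 and 73.0, and the summer libraries 3.73-fold apart at 31.4 and 117. The season means, 74.4 and 71.2, do not show that spread. The fitted log2 difference was -0.060 with an SE of 0.58 (edgeR quasi-likelihood test, adjusted p = 0.996). It was -0.72 without summer A and 1.18 without summer B, each with 1 summer library left. It also turned to 0.016, 0.027 and 0.092 when the reads were scaled by TMM, RLE or totals.

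IGFBP5, which also binds to the extracellular matrix, was the steadiest of the 5 members tested. It had 31 and 22 reads in winter A and winter B and 19 and 23 in summer A and summer B, or 23.4, 23.3, 20.6 and 26.2 after scaling. The highest library was 1.27 times the lowest. IGFBP2 and IGFBP5 are neighbours in the RefSeq annotation of the dromedary (assembly mCamDro1.pat), with 0 protein-coding genes between them. The summer libraries differed 3.73-fold for IGFBP2 and 1.27-fold for IGFBP5, a difference between the genes that was not tested. The fitted log2 difference of IGFBP5 between seasons was -0.0023 with an SE of 0.62, and turned to 0.023, 0.037 and 0.097 with TMM, RLE and total scaling and to 0.18 without summer B.

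IGFBP3, the main carrier of IGFs in blood, had few reads. There were 16 and 10 reads in winter A and winter B and 13 and 7 in summer A and summer B. Scaled values were 12.1 and 10.6 in winter and 14.1 and 7.98 in summer, so the winter libraries lay inside the summer range. The fitted log2 difference was 0.040 with an SE of 0.81, and turned to -0.31 without summer B and -0.067 without winter A.

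IGFBP4, an inhibitory binding protein that the protease PAPPA cuts, differed most within winter. It had 36 reads in winter A and 9 in winter B, against 17 and 14 in summer A and summer B. The scaled values were 27.2 and 9.52 in winter and 18.4 and 16.0 in summer, so that winter A was the highest library and winter B the lowest. The fitted log2 difference was 0.15 with an SE of 0.76, and -0.85 without winter A against 0.65 without winter B. Winter B was also the library with few reads of PDYN, SIM1 and OTP, though not of POU3F2, and the part of that in the IGFBP4 value was not tested.

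IGFBP6, which prefers IGF2 over IGF1, had 5 reads in winter A, 1 in winter B, 0 in summer A and 1 in summer B. Of the 4 libraries, winter A alone held more than 3 reads. IGFBP6 and IGF2 were thus both near the floor in all libraries, and neither entered a test at the minimum mean of 10. The extent of the gene model behind IGFBP6 is not known here either.

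IGFBP7 had the widest difference between season means among the 8 members. The deposited means are 923 normalized counts for summer and 509 for winter, 1.81 times higher in summer. Among the 4112 symbols whose mean reached 250 in either season, 0.657% were lower in winter by at least as much, and 1.43% were more than 2-fold apart in either direction. The season means alone carry no spread between samples, so the reads behind them are given next.

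The summer mean of IGFBP7 has 3 solutions. They are 304 and 1330 reads in summer A and summer B, 818 and 841, or 1332 and 352. In normalized reads these are 330 and 1516, 887 and 959, or 1444 and 401. The winter mean also has 3, with 864 and 346, 1049 and 214, or 1234 and 82 reads in winter A and winter B. Winter A was above winter B in all 3, with normalized reads of 652 and 366, 792 and 226, or 931 and 86.7. Both winter libraries lay under both summer libraries in 2 of the 9 combinations, each of them with the even summer solution.

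**Figure D3:**
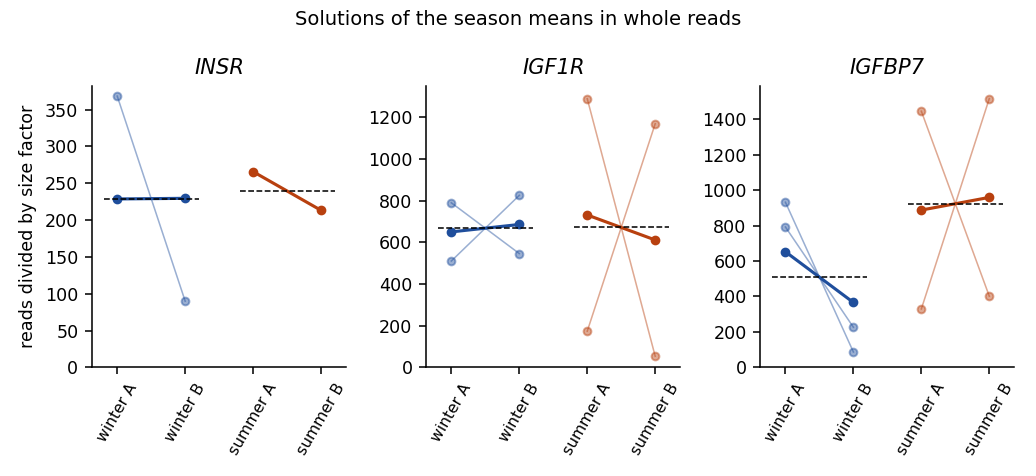
Solutions of the season means of INSR, IGF1R and IGFBP7 in whole reads, divided by size factor. Each line joins the 2 libraries of a season in 1 solution, the thick line is the most even solution and the dashed line the deposited mean. The even summer solution of IGFBP7 (887 and 959) lies above the even winter solution (652 and 366), while in 7 of the 9 combinations the seasons overlap.

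Of the single-solution genes tested, 10 reached a mean of 250, so the unevenness of the libraries could not be read at the level of IGFBP7. At lower levels, among the single-solution genes whose mean reached 100 in either season, 5.39% differed more than 3-fold between the summer libraries and 1.30% between the winter libraries. The other solutions of IGFBP7 need a difference of 3.60-fold or 4.60-fold between the summer libraries, and its winter solutions 1.78-fold, 3.50-fold and 10.7-fold. With each of the 9 combinations in place, the fitted log2 difference lay between -0.86 and -0.85 and the unadjusted p between 0.128 and 0.453 (edgeR quasi-likelihood test, adjusted p = 0.982 to 0.983). For the same reason the spread in that fit is poorly known at this level. When the most even solution was used for every gene with at most 9 combinations, 12980 genes in all, IGFBP7 had a log2 difference of -0.85 with an SE of 0.30 (edgeR quasi-likelihood test, unadjusted p = 0.0168, adjusted p = 0.988). This choice makes the spread as small as the means allow. By the same test, 476 of the 12980 genes had an unadjusted p under 0.05, and 0 an adjusted p under 0.05.

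Markers of the vessel wall were read beside IGFBP7. Of 9 endothelial markers with values, 2 were higher in winter, the median log2 ratio was -0.12, and the sum of their means was 2026 in summer and 1845 in winter. EMCN had no value. Among single endothelial markers PECAM1 had a log2 ratio of -0.52 and CDH5 of 0.91. The 5 endothelial markers with a single solution summed to 313 and 336 normalized reads in winter A and winter B, under 433 and 382 in summer A and summer B. The 9 markers of mural cells summed to 1008 in summer and 1019 in winter, and 3 of the 8 at the minimum level were higher in winter, with a median log2 ratio of -0.11. The 5 mural markers with a single solution were lower in winter in sum, at 299 and 280 against 479 and 358. Among these 5, RGS5, ACTA2, ABCC9 and TAGLN had log2 ratios of -0.83, -0.73, -0.52 and -0.18. KCNJ8 went the other way, at 2.52. Its season means, 1.71 for summer and 9.81 for winter, were both under the minimum level. The single-solution vessel markers summed lower in both winter libraries. Of single genes tested, 30.5% had libraries of the seasons that did not overlap. The endothelial sum leaves out VWF, with a log2 ratio of 0.27, and FLT1, SLC2A1 and TEK, at -0.12, -0.093 and -0.30. The mural sum leaves out NOTCH3, PDGFRB and CSPG4, with log2 ratios of 1.13, 0.48 and 0.18, and MYH11, at -0.047. For IGFBP7, both winter libraries lay under both summer libraries in 2 of the 9 combinations. The part of vessel cells in the IGFBP7 values was not tested.

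The difference between the summer libraries in IGF1 and IGFBP2 was read beside all genes and beside the cell markers. IGF1 was 5.91-fold higher in summer B than in summer A, and 10.6% of the genes tested had a ratio at least as high. For IGFBP2 the share was 15.0%. Over 7356 genes with reads in both libraries the median log2 of summer B over summer A was 0.23, so a marker higher in summer B goes the way of most genes. Single-solution symbols with a few reads in summer B and none in summer A numbered 455, and 78 the other way. In the count files, summer replicate 1 had reads on 52456 gene models, from 4406533 reads. Summer replicate 2 had reads on 40178, from 5520242 reads. Gene models with a few reads in summer replicate 1 and none in summer replicate 2 numbered 6666, and 767 the other way. Which replicate is summer B was not determined. The share more than 3-fold apart between the summer libraries was 20.3% of the genes tested and 5.39% of those whose mean reached 100. IGF1 and IGFBP2 had lower means than that. All 4 astrocyte markers with a single summer solution were higher in summer B, with a sum of 639 normalized reads against 247, GJA1 at 343 against 111, while AQP4 had 9 reads in each. All 6 choroid plexus markers were higher in summer B as well, with a sum of 263 against 121, while OTX2 had 7 reads in each. All 5 neuronal markers with a single summer solution were also higher there, with a sum of 848 against 417, SYT1 at 116 against 36.9. Of 3 oligodendrocyte markers 0 were higher in summer B, with sums of 302 there and 432 in summer A. Of 3 microglial markers 1 was higher in summer B, and their sum was 184 there against 281 in summer A. Among 10 fibroblast markers 5 were higher in summer B, with sums of 585 and 621. Among 8 endothelial markers 3 were higher in summer B, with sums of 1231 there and 1348 in summer A. Among 9 mural markers 3 were, with sums of 878 and 1139. The astrocyte sum over 3 genes was 334 in winter A and 157 in winter B. The part of these cells, or of the difference across all genes, in the IGF1 and IGFBP2 values was not tested.

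**Figure D4:**
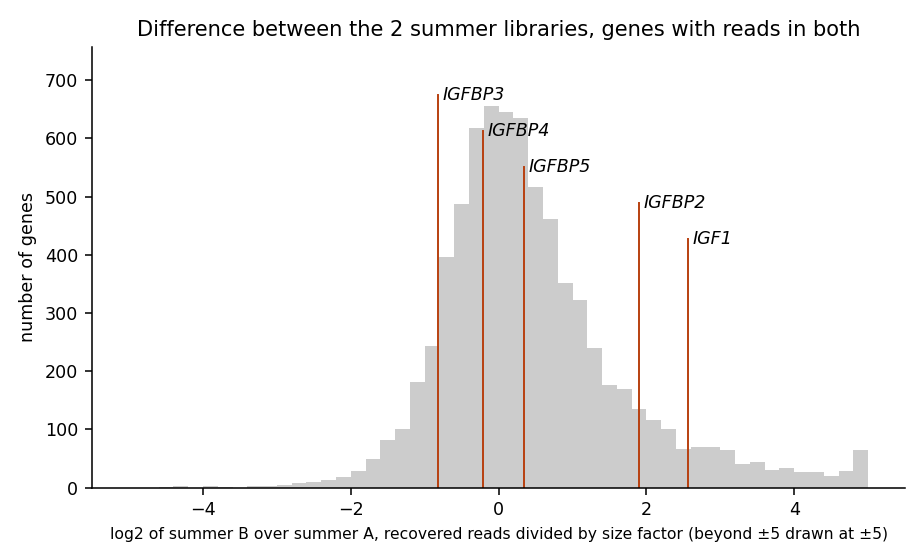
Number of genes by the log2 of summer B over summer A, from recovered reads divided by size factor, for 7356 genes with reads in both. The 5 members are marked by lines whose height has no meaning. IGF1 (2.56) and IGFBP2 (1.90) lie in the right tail, and IGFBP3 (-0.82), IGFBP4 (-0.21) and IGFBP5 (0.35) nearer the middle.

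The other genes of the IGF system were taken from a list of 17 that holds the insulin gene, the clearance receptor IGF2R, carriers, proteases and mRNA-binding proteins. Of these, 14 had values, 9 reached the minimum level and 0 were more than 2-fold apart. The median log2 ratio was -0.11. Among these 9 the highest ratios were those of IGFALS (0.59), which forms the circulating complex with IGFBP3, and IGF2R (0.20), which removes IGF2. The lowest were those of the growth hormone receptor GHR (-0.61) and IGF2BP2 (-0.54), an RNA-binding protein. GHR had 160 reads in winter A and 103 in winter B, with 162 in summer A and 154 in summer B. Its scaled values of 121 and 109 in winter lay under 176 and 176 in summer (edgeR quasi-likelihood test, unadjusted p = 0.0936, adjusted p = 0.982). The seasons did not overlap in 30.5% of all genes tested. Of 13 genes of the list with a single summer solution, 9 were higher in summer B. PAPPA, the IGFBP4 protease, had 8 reads in summer A and 34 in summer B, beside 32 and 25 in winter. INS, IGFBPL1 and STC1 had no value.

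Inside the cell, the receptors signal through IRS adaptors, PI3-kinase, AKT and mTOR to FOXO factors. Of 33 genes of this route, 30 had values, 29 reached the minimum level and 0 were more than 2-fold apart. Of the 29, 18 had a higher mean in winter, with a median log2 ratio of 0.070. Among the 29 the highest ratios were those of IRS4 (0.77), an adaptor of the hypothalamus, and the phosphatase INPPL1 (0.63). The lowest were those of PIK3CA (-0.61), a catalytic subunit of PI3-kinase, and the adaptor GRB14 (-0.55). Of 25 genes with a single summer solution 10 were higher in summer B, with sums of 5273 normalized reads in summer A and 4774 in summer B. IRS1 was among the 10, with 20 reads in summer A and 67 in summer B. GRB2 and PDPK1 went the other way, with 200 and 335 reads in summer A and 99 and 200 in summer B. On recovered reads 6 genes of the first list and 9 of the second were tested, and 0 passed the rule of the study.

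Genes with the most similar profile over the 4 libraries were sought among the single-solution genes (4058, with IGF1 and IGFBP2 themselves left out of their own search) whose mean reached 50 in either season. Likeness was the root mean square distance between centred log2 values. For IGF1 these were SLC26A7 (0.076), ERBB2 (0.14) and GADD45B (0.17). ERBB2, a receptor tyrosine kinase, had normalized reads of 174 and 81.4 in winter and 56.4 and 305 in summer. For IGFBP2 they were CDH7 (0.044), SOX5 (0.063) and DSC2 (0.081). SOX5, a transcription factor, had 64.9 and 74.0 in winter and 32.5 and 111 in summer. For IGFBP3 they were ZNF354A (0.017), MRPL19 (0.042) and TM2D3 (0.047), and for IGFBP4 NDUFA1 (0.038), KCNH2 (0.095) and ST8SIA1 (0.11). For IGFBP5 they were CAP2 (0.0075), CCDC13 (0.019) and MRPL49 (0.036). Within a distance of 0.1 lay 1 gene for IGF1, 2 for IGFBP4, 5 for IGFBP2, 44 for IGFBP3 and 85 for IGFBP5.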

How the data were processed

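RNA of 2 winter and 2 summer samples, grouped by sample title, was sequenced as paired 100 bp reads. The authors used TopHat to align reads to their own dromedary assembly. The deposited files, made with HTSeq, hold raw counts per unnamed gene model. These were used for depth only. Outside gene models lay 46.4% to 55.2% of the tallied alignments. The authors' deposited table gives per symbol a signal, which is the average over a season after each count is scaled by the DESeq size factor. Its edgeR fold changes and p-values were not used. Left out were 8 rows that name no gene and 4 rows with repeated names.

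Whole reads were solved from the means, which carry 6 significant digits, within their rounding. All 16047 symbols had a solution and 9884 a single one. The libraries recovered were not tied to replicate numbers. The quasi-likelihood test of edgeR 4.0.16 (R 4.3.3, non-legacy fit) was run on single-solution genes that reached a mean of 10 in either season, with recovered size factors and Benjamini-Hochberg adjustment. Differences are log2 of winter over summer, and SEs are the difference divided by the root of F. Members with several solutions were fitted with each in turn. DESeq2 1.42.0, other scalings, filters and fold thresholds, a wider rounding tolerance and leaving out each library were alternatives. Recovery and test were checked on simulated data. Named were the members, the 2 highest and 2 lowest of each pathway list, genes past the rule, and the 3 nearest profiles. Other genes were named after their values were seen. Members and lists were chosen with earlier results of these data known. RefSeq names matched 9 of the 10 members, not IGFBP3. Transcript lengths and sequences were not used here, so a planned comparison of levels per length was not made. Of the marker lists, COL1A2 and PDYN passed the rule, both lower in winter. Figures were drawn with matplotlib 3.10.9.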

Additional observations from a re-analysis of the deposited data

How the results depend on the processing

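No paired analysis was possible because winter and summer samples came from animals killed in different months at different places. With all libraries kept, the number of members past the rule was 0 in each of the 10 alternatives, and so was that of the other pathway genes. Leaving out 1 library gave 0 to 1 members (IGF1 without summer A, IGFBP2 without summer B) and 0 to 2 other pathway genes. In the deposited means 0 members were more than 2-fold apart, against 2 with no minimum mean (IGF2 and IGFBP6, at or near the floor) and 2 at a fold threshold of 1.5 (IGF1 and IGFBP7). Of the members with several solutions, 0 had an unadjusted p under 0.05 in the edgeR quasi-likelihood fits. With the most even solutions, an alternative chosen after seeing the data, 1 of them, IGFBP7, did. It was among 476 of 12980 genes that did so in that alternative. Over all genes, 128 passed the rule, against 60 with DESeq2, 79 with a mean of at least 10 in both seasons, 66 at a fold threshold of 3 and 216 with the most even solutions. It was 106 with the exact test. The causes were not tested, except that a higher threshold or fewer genes leaves fewer that can pass. With each library left out the count went from 35 to 1159, with 1107 without summer A and 1159 without summer B, where the lone summer library is assumed to vary like the winter ones. Genes with an adjusted p under 0.05 numbered 0 by quasi-likelihood (152 at an unadjusted p under 0.05), 1 with the exact test, 1 with DESeq2, and 0 to 246 with a library left out (246 without summer A, 227 without summer B). Genes higher in winter made up 65 of those 128, and with TMM scaling 79 of 145, with RLE 83 of 141 and by totals 122 of 168. In the deposited means 1002 symbols were more than 2-fold apart, 2070 with no minimum, 3079 at 1.5-fold and 255 at 3-fold. With a library left out, the log2 difference went from -1.47 to 1.09 for IGF1, from -0.72 to 1.18 for IGFBP2, from -0.31 to 0.51 for IGFBP3, from -0.85 to 0.65 for IGFBP4 and from -0.17 to 0.18 for IGFBP5. IGFBP3 was at -0.067 without winter A and IGFBP5 at 0.00097 without winter B. Under TMM, RLE and total scaling IGFBP2 turned to 0.016, 0.027 and 0.092 and IGFBP5 to 0.023, 0.037 and 0.097. IGF1, IGFBP3 and IGFBP4 kept their direction in the 10 alternatives with all libraries.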
